A study of Mus musculus with 48 samples.

Results

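The keratin genes encode the intermediate filament proteins of epithelial cells and of hair, and they are described here by the H3K27me3 carried in 3 mouse cell types of the endodermal lineage. Every symbol made of Krt, a number and at most 1 letter was taken, which gave 54 genes of the 24466 in the deposited table. They were grouped by where the proteins are known to be made. Simple, single-layered epithelia contributed 5 genes, stratified epithelia such as epidermis, mouth and cornea 18, the root sheaths of the hair follicle 9 and the hair shaft 15. The remaining 7 genes (Krt23, Krt24, Krt42, Krt80, Krt88, Krt90 and Krt222) were kept apart.

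The series holds 48 libraries, of which the 12 H3K27me3 and matching input libraries are used here and the 36 of the H3K9me3 arm were not analysed here. Definitive endoderm, the embryonic layer that gives rise to gut, liver and pancreas, was sorted from e8.25 embryos by the surface antigen ENDM1. The matings named in the labels were of superovulated B6C3F1 females with C3H, Pdx1-eGFP or Ins-RFP males, without saying which cross gave which cells. Hepatocytes came from 8-week-old adults, and mature beta cells were sorted as RFP-positive cells at the same age. How the adult hepatocytes were isolated, and whether animals were pooled, is not stated in the labels. The labels name no mutation and no drug treatment in any of these groups.

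Keratins work in pairs. An acidic type I keratin and a basic type II keratin join into a heterodimer, from which the filament is built, and most epithelia make a characteristic pair. Krt8 with Krt18 is the pair of hepatocytes and islet cells, Krt7 and Krt19 mark bile and pancreatic ducts, and Krt20 marks gut lining. In mouse, the type I genes lie in a cluster on chromosome 11 and the type II genes in a cluster on chromosome 15, with the type I gene Krt18 beside Krt8 as the exception. H3K27me3 is the mark that Polycomb repressive complex 2 places on the chromatin of silent genes, often over whole blocks of developmental or tissue-restricted genes.

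Each gene has 1 value per cell type, a ratio of H3K27me3 to input that the authors quantile-normalized across the 3 cell types. This gives each column nearly the same distribution, with a median of 0.711 and an upper quartile of 1.27, so a ratio states where a gene stands within its cell type and not how much of the mark the cells hold in all. Each cell type had 2 ChIP and 2 input libraries per the labels, but the table holds 1 value per gene and cell type, and how the libraries enter it is not stated: no value has a replicate error, read depth is unknown, and no test between cell types was possible. Differences are on the log2(ratio + 0.0711) scale, which understates those of low ratios. The threshold for calling a gene higher or lower was 1 on this scale, which is 2-fold. The labelled adult cell types were checked at their own genes, where the mark is low if the gene is active. The 8 hepatocyte genes had a median ratio of 0.247 in hepatocytes against 1.11 in endoderm and 1.46 in beta cells, and all 8 lay below the median of all genes in hepatocytes. The 8 beta cell genes had medians of 0.375 in beta cells, 5.74 in endoderm and 4.75 in hepatocytes, and 6 of the 8 lay below the overall median in beta cells. The 8 endoderm genes were mixed and as a set did not bear out the endoderm label. Against endoderm, 5 were lower in hepatocytes (Foxa1, Foxa2, Foxa3, Gata4 and Gata6) and 3 higher (Sox17, Epcam and Cxcr4). Their medians were 1.36 (endoderm), 1.23 (hepatocytes) and 1.37 (beta cells), and 1 of the 8 lay below the overall median in endoderm. Foxa1, an early endoderm factor, stood at 72.6 against 1.78 in hepatocytes and 6.35 in beta cells, and Foxa2, Foxa3 and Gata6 were also highest in endoderm. Sox17 (1.42, 7.05 and 4.16 in endoderm, hepatocytes and beta cells) and Cxcr4 (1.74, 5.54 and 3.07) were lowest in endoderm. Results against endoderm below are those of the column labelled so.

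As a family, keratin genes carried more H3K27me3 than most genes in all 3 cell types, most of all in hepatocytes. Their median ratio was 1.49 (endoderm), 2.34 (hepatocytes) and 1.32 (beta cells), which are rank percentiles of 80.7, 91.4 and 76.7. In endoderm 34 of 54 stood at or above the 75th percentile, where 25.7% of all genes stand. In hepatocytes 47 of 54 did, against 25% of all genes, and in beta cells 31 of 54, again against 25%. The cut of 1.27 is also the most frequent endoderm ratio, whereas hepatocytes most often had 0.918 and beta cells 0.932. The keratin medians exceeded these most frequent ratios least for endoderm, at 1.49 against 1.27. No keratin reached the extreme ratios of other genes: the highest keratin ratios were 2.61 at Krt6b in endoderm, 4.42 at Krt1 in hepatocytes and 3.59 at Krt16 in beta cells. No keratin had the most frequent value of a column, which recurs at 346 (endoderm), 357 (hepatocytes) and 430 genes (beta cells), and no pair of keratins had identical values.

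Hepatocytes held the highest of the 3 ratios at 36 of 54 keratins, against 28.6% of all genes. Endoderm held it at 8, against 35.6%, and beta cells at 10, against 35.7%. Beta cells had the lowest ratio at 27 of 54, where 32.4% of all genes have it. Set against endoderm, 15 keratins were higher in hepatocytes (12.8% of all genes) and 1, Krt10, was lower (13.3% of all genes). The median log2 difference was 0.58, beside -0.03 over all genes. Against beta cells, 17 keratins were higher in hepatocytes (13.1% of all genes) and 2, Krt4 and Krt16, lower (12.5% of all genes), with a median of 0.59 beside -0.04. Beta cells against endoderm gave 6 higher (14.1% of all genes) and 5 lower (15.1% of all genes). The keratin median there was -0.06, beside -0.01 over all genes. When columns were instead divided by their most common value, the all-gene median became 0.38 in both comparisons with endoderm, and that of the keratins 1.02 in hepatocytes and 0.37 in beta cells, so relative to all genes the latter stayed near 0. This division gave 28 higher and 1 lower keratins in hepatocytes, against 21.1% and 7.69% of all genes, and 13 and 3 in beta cells, against 23.1% and 9.50%. Both comparisons with endoderm rest on the same endoderm column. The ranks of the 54 keratins in hepatocytes and in beta cells had a Spearman correlation of 0.09, where all 24466 genes gave 0.49. Each was also set beside endoderm, with 0.21 for hepatocytes (0.47 over all genes) and 0.29 for beta cells (0.36 over all genes). These are across genes, which share their columns and neighbourhoods and are no replicates. In hepatocytes 47 of the 54 keratins stand at or above the 75th percentile, so most of their ranks span a narrow range. The part of this narrow range in the lower keratin correlations was not tested.

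**Figure D1:**
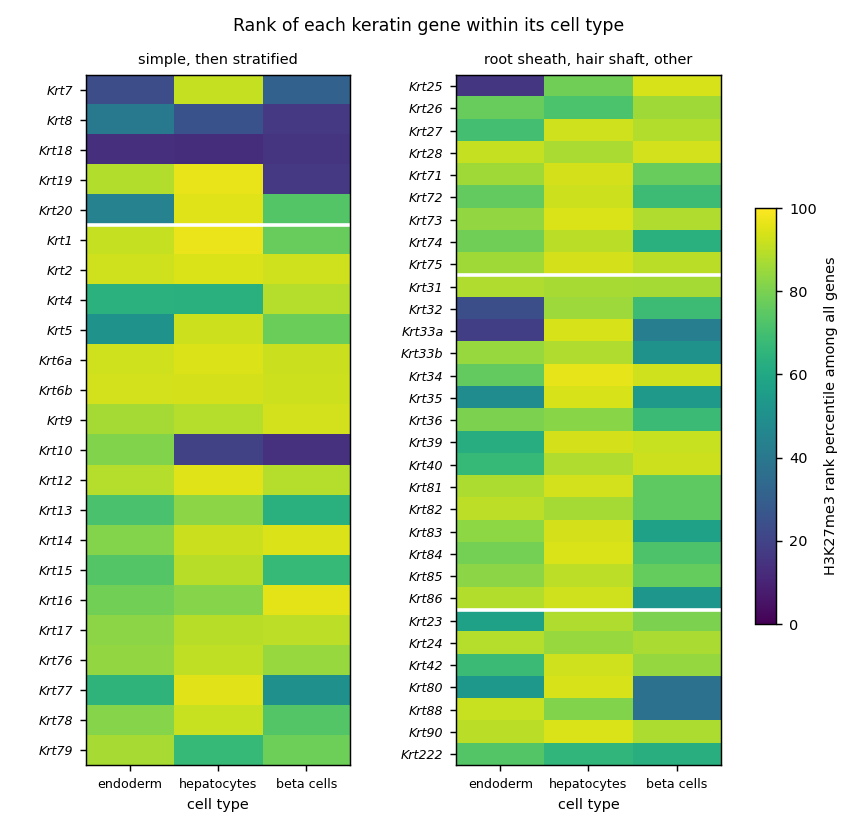
Rank percentile of H3K27me3 among all genes for each of the 54 keratin genes (rows) in the 3 cell types (columns), white lines separating the classes. The lowest hepatocyte values are those of Krt18, Krt10 and Krt8, at percentiles 13.2, 19.9 and 25.1.

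The simple epithelial keratins split by gene. Krt8 and Krt18 stood low in every cell type, whereas Krt7, Krt19 and Krt20 were high in hepatocytes. Krt8, the type II partner in the pair made by liver and islet cells, had 0.579 (endoderm), 0.460 (hepatocytes) and 0.390 (beta cells) as its ratios. Its partner Krt18 had 0.359, 0.353 and 0.377, within rank percentiles of 13.2 to 15.1, the flattest profile of the class. All 6 values of the pair lay below the median of all genes.

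The duct keratin Krt7 measured 0.449 in endoderm, 2.30 in hepatocytes, 0.501 in beta cells. It was thus low in endoderm and beta cells and high in hepatocytes, by log2 differences of 2.19 and 2.05. Krt19, the other duct keratin, had 2.00, 4.02 and 0.390, so beta cells stood apart from both other cell types. Its hepatocyte ratio was the second highest of any keratin, and the difference of hepatocytes from beta cells, 3.15 on the log2 scale, was the largest of the family. Against endoderm, Krt19 in beta cells was lower by -2.17, and in hepatocytes it missed the threshold at 0.98. Krt20, the keratin of gut lining, had ratios of 0.621, 3.26 and 1.22, with hepatocytes above endoderm by 2.26 and above beta cells by 1.36. Beta cells thus carried little of the mark at Krt7 and Krt19, genes of the neighbouring ductal epithelium.

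**Figure D2:**
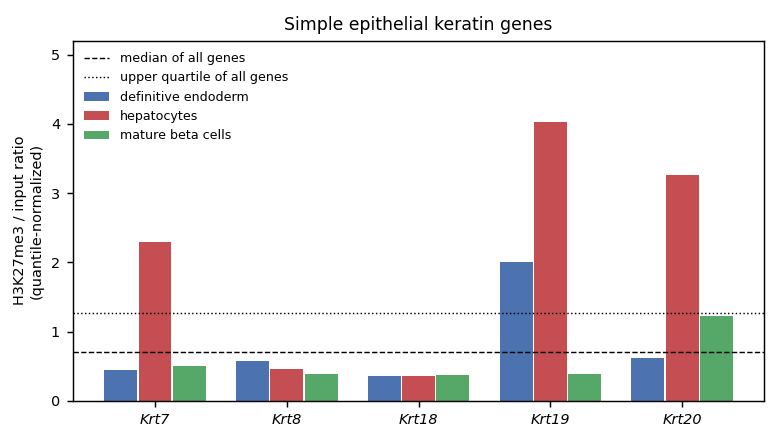
Quantile-normalized H3K27me3 to input ratio (linear axis from 0) of the 5 simple epithelial keratin genes, 1 value per bar and no error available. Krt8 and Krt18 lie under the dashed median of all genes (0.711) in all 3 cell types, and Krt7, Krt19 and Krt20 are highest in hepatocytes, at 2.30, 4.02 and 3.26.

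The start regions of these genes are shown because the mark often follows CpG-rich promoters. Of the 5 genes, 4 had an entry among the RefSeq promoters of build GRCm38.p6, while the authors' notes name mm9. Krt19 had none. The 250 bases before each start follow, 5′ to 3′ on the gene's strand, with every CpG in capitals. Krt7 lies at chr15:101412153-101412402, plus strand. Krt18 lies at chr15:102027966-102028215, plus strand, and Krt8 at chr15:102004343-102004592, minus strand. Krt20 lies at chr11:99438154-99438403, minus strand.
Krt7: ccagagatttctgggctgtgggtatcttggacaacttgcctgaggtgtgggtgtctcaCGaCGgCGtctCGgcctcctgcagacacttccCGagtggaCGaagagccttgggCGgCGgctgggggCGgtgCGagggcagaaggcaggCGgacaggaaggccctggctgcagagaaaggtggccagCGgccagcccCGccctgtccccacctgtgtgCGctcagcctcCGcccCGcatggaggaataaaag
Krt18: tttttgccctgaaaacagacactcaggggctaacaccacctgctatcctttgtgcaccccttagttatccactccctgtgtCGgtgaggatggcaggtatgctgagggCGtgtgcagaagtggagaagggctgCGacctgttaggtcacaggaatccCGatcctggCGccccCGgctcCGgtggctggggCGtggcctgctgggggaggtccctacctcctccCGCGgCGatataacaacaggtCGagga
Krt8: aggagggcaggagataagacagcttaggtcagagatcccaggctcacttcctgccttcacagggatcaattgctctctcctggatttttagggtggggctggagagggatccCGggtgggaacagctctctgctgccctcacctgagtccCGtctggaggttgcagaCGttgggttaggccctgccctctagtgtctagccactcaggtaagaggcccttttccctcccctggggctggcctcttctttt
Krt20: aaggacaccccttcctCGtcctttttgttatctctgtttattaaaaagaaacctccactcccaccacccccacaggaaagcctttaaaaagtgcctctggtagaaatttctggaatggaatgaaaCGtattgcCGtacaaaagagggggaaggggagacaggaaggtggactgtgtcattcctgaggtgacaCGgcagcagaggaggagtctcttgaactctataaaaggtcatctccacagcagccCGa
The printed bases hold 16 CpG at Krt7, 12 at Krt18, 3 at Krt8 and 5 at Krt20. With the 50 bases after the start the counts were 21, 17, 6 and 6, where the median of 17410 genes with a promoter was 13.5. Of the CpG-richer pair, Krt7 was marked in hepatocytes and Krt18 in no cell type. Of the CpG-poorer pair, Krt20 was marked in hepatocytes and Krt8 in none. A link between CpG number and the mark was not tested, and 4 genes are too few to show or exclude it. The letters TATAAA, searched on both strands of the 300 bases, occurred at Krt20, 29 bases before the start on the forward strand, and at Krt8, overlapping the annotated start. They were absent from these windows at Krt7 and Krt18, and 14.3% of the 17410 genes had them.

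Stratified epithelial keratins had median ratios of 1.57 (endoderm), 2.28 (hepatocytes) and 1.86 (beta cells), and most were marked in every cell type. At or above the 75th percentile stood 13 of 18 (endoderm), 15 (hepatocytes) and 13 (beta cells). In hepatocytes against endoderm 2 of 18 were higher (Krt5 and Krt77), a share of 11.1% that is near the 12.8% of all genes. Lower was 1 (5.56%), beside 13.3% of all genes. The median difference was 0.39.

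Krt10, made with Krt1 in the differentiating layers of epidermis, was the only keratin counted as lower in hepatocytes than in endoderm. It had 1.51 (endoderm), 0.422 (hepatocytes) and 0.368 (beta cells). The adult cell types were alike and low, at percentiles 19.9 and 14.4, while endoderm stood at 81.1. The log2 differences from endoderm were -1.68 and -1.84. Its partner Krt1 had 2.28, 4.42 and 1.33, and its hepatocyte value was the highest ratio of any keratin. Krt1 was thus higher in hepatocytes than in endoderm, but by 0.94, which missed the threshold.

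The basal layer keratins Krt5 and Krt14 also differed from each other. Krt5 had 0.729 (endoderm), 2.48 (hepatocytes) and 1.35 (beta cells), which puts hepatocytes above endoderm by 1.67. Krt14 had 1.52, 2.44 and 3.04, highest in beta cells. Krt15, a further basal keratin, had 1.22, 2.06 and 1.05.

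Keratins of wounded and rapidly growing epidermis were marked throughout. Krt6a had 2.55, 3.16 and 2.45 in endoderm, hepatocytes and beta cells, and Krt6b had 2.61, 2.69 and 2.51. Krt2, of the upper epidermis, was similar (2.60, 3.01 and 2.60). Krt16, the partner of Krt6a, had 1.40, 1.55 and 3.59, so beta cells were higher than endoderm by 1.32, and hepatocytes minus beta cells was -1.18. Krt17 had 1.59, 2.08 and 2.14.

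Among keratins of the mouth and oesophagus, Krt4 had 0.968, 0.960 and 2.01, higher in beta cells than in endoderm by 1.00, with hepatocytes minus beta cells at -1.02. Krt13, its partner, had 1.16, 1.59 and 0.961 and passed no threshold. Krt12, the keratin of cornea, had 2.01, 3.30 and 2.01, and Krt9, that of palm and sole, 1.82, 2.03 and 2.61. Krt77 had the largest hepatocyte difference of the class, with 0.997 (endoderm), 3.42 (hepatocytes) and 0.713 (beta cells). Krt79 was highest in endoderm, with 1.87, 1.05 and 1.37.

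The root sheath keratins, made in the sleeve of cells that guides the growing hair, had class medians (endoderm, hepatocytes, beta cells) of 1.39, 2.53 and 1.96. Krt25 stood apart. Its ratios of 0.383, 1.39 and 2.84 place endoderm at percentile 15.7 and beta cells at 94.0, and the log2 difference of 2.68 was the largest of any keratin between beta cells and endoderm. Its neighbours in the gene row did not share the low endoderm value: Krt26 had 1.33, 1.17 and 1.79, Krt27 1.13, 2.58 and 1.97, and Krt28 2.28, 1.88 and 2.62. The type II members Krt71, Krt72, Krt73, Krt74 and Krt75 were all highest in hepatocytes, at 2.11 to 2.97, and at 0.962 to 2.09 in beta cells. RefSeq lists Krt74 as a transcribed pseudogene. Hepatocytes exceeded beta cells at Krt71, Krt72 and Krt74 by 1.04, 1.16 and 1.08. The 8 of 9 root sheath genes with a RefSeq promoter had 4 to 11 CpG in the 300 bases, with a median of 6. TATAAA occurred in 7 of the 8, a share of 87.5% beside 14.3% of all 17410 genes. At Krt72 the match was on the reverse strand, 203 bases before the start. It began 30 bases before the start on the forward strand at Krt25, Krt26, Krt28 and Krt73.

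Hair shaft keratins, the cysteine-rich hard keratins of hair and nail, had the highest class median in hepatocytes, 2.56, with 1.47 in endoderm and 1.18 in beta cells. All 15 stood at or above the 75th percentile in hepatocytes, at ratios of 1.57 to 3.88. In beta cells 7 did, and in endoderm 10. Hepatocytes had the highest ratio at 12 of the 15, against 28.6% of all genes. In hepatocytes 6 were higher and 0 lower than in endoderm, where 12.8% and 13.3% of all genes were, and 7 were higher and 0 lower than in beta cells, where 13.1% and 12.5% were.

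Krt33a had the largest hepatocyte difference from endoderm of all keratins, 2.62, with 0.409 (endoderm), 2.89 (hepatocytes) and 0.601 (beta cells). Krt33b, its close copy and neighbour, had 1.70, 1.97 and 0.729, so these neighbours were far apart in endoderm and close in beta cells. Krt35, which is made early in the hair matrix, had 0.683, 2.85 and 0.794. Krt85, its type II counterpart, had 1.58, 2.13 and 1.30. Krt34 reached 3.88 in hepatocytes, the top of the class, with 1.30 in endoderm and 2.54 in beta cells.

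Beta cells exceeded endoderm at Krt32 (0.452 and 1.09), Krt39 (0.943 and 2.36) and Krt40 (1.05 and 2.53), by 1.15, 1.26 and 1.21. They were below endoderm at Krt33b, by -1.15, and at Krt86, by -1.31. Krt86 had 1.98 (endoderm), 2.56 (hepatocytes) and 0.756 (beta cells), and its neighbours Krt81 (1.92, 2.63 and 1.27) and Krt83 (1.61, 2.77 and 0.854) were ordered alike. RefSeq gives Krt83 also as an older name of Krt87, so this symbol may stand for either gene. Krt31 was even, with 1.97, 1.86 and 1.84.

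**Figure D3:**
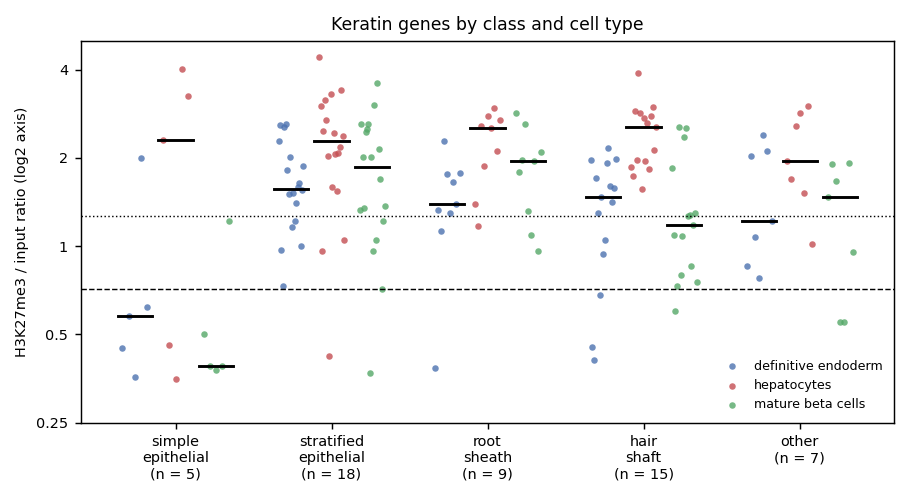
Ratio of every keratin gene (points, log2 axis) by class and cell type, with class medians as black bars, the median of all genes (0.711) dashed and the upper quartile (1.27) dotted. The hepatocyte medians lie above the upper quartile in all 5 classes, whereas simple keratins lie below the overall median in endoderm (0.579) and beta cells (0.390).

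Of the keratins in no class, Krt80, a widely expressed type II keratin, had 0.778 (endoderm), 2.84 (hepatocytes) and 0.549 (beta cells). It was higher in hepatocytes by 1.78 and 2.23. Krt88 was highest in endoderm (2.39, 1.51 and 0.553) and was lower in beta cells by -1.98. Krt23 (0.855, 1.95 and 1.47) and Krt42 (1.08, 2.56 and 1.67) were higher in hepatocytes than in endoderm by 1.12 and 1.20. Krt90 had 2.11, 3.00 and 1.92, Krt24 had 2.04, 1.70 and 1.91, and Krt222, at the edge of its cluster, had 1.21, 1.02 and 0.952.

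Class counts of genes past the threshold are drawn beside those of all genes and of 2 other large families of tissue-restricted genes. Keratin-associated proteins (Krtap, 54 genes), which bind hair keratins, were higher in hepatocytes than in endoderm at 28 genes and lower at 3. Olfactory receptors (Olfr, 1125 genes) were higher at 563 and lower at 132. The shares higher were 51.9% (Krtap) and 50% (Olfr), above the 27.8% of the keratins and the 12.8% of all genes. The shares lower were 5.56% and 11.7%, beside 1.85% of the keratins and 13.3% of all genes. Hepatocytes against beta cells gave 17 higher and 10 lower Krtap genes, and 295 higher and 258 lower Olfr genes. The shares higher were 31.5% (Krtap) and 26.2% (Olfr), beside 31.5% of the keratins and 13.1% of all genes. Lower were 10 of 54 Krtap genes and 22.9% of Olfr genes, beside 3.7% of the keratins and 12.5% of all genes. Both families thus exceeded all genes in both directions, and the keratins only among those higher. In beta cells against endoderm 24 Krtap and 527 Olfr genes were higher (44.4% and 46.8%), and 8 and 185 lower (14.8% and 16.4%). All keratins gave 11.1% higher and 9.26% lower there, and all genes 14.1% and 15.1%. No test of these differences between families was possible.

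**Figure D4:**
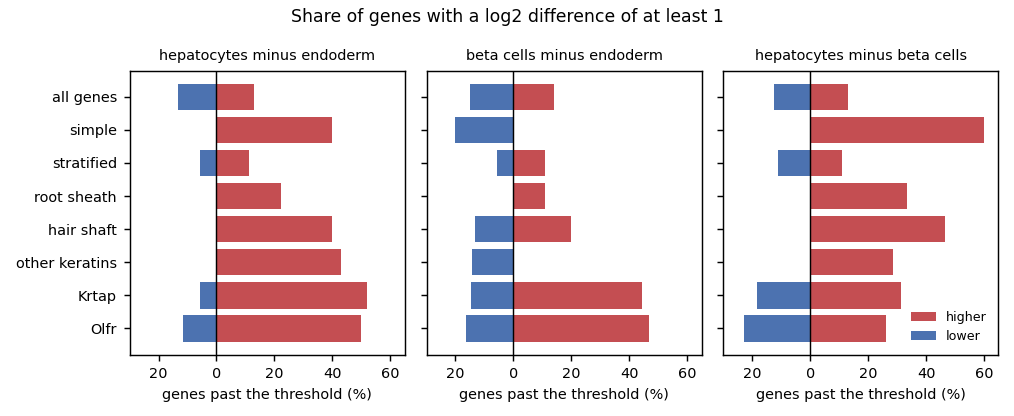
Percent of genes counted as higher (red, right) or lower (blue, left) in each comparison, for all genes, the 5 keratin classes, Krtap and Olfr genes. Hair shaft keratins were higher in hepatocytes at 40.0% and 46.7% of genes against endoderm and beta cells, and the simple class holds only 5 genes. Medians of the stratified (-0.03), hair shaft (-0.25) and other keratins (-0.14) in the middle panel become 0.40, 0.17 and 0.29 when columns are divided by their most common value, where the all-gene median is 0.38.

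The types differed in their counts, for which no test was possible. Of 26 type II genes, 21 were highest in hepatocytes and 18 lowest in beta cells, with medians of 1.65, 2.59 and 1.29 in the order endoderm, hepatocytes, beta cells. Of 28 type I genes, 15 were highest in hepatocytes and 9 lowest in beta cells, with medians of 1.26, 1.96 and 1.73. The shares highest in hepatocytes were 80.8% (type II) and 53.6% (type I), beside 28.6% of all genes. Those lowest in beta cells were 69.2% and 32.1%, beside 32.4% of all genes, which the type I share nearly equals. Hepatocytes exceeded beta cells past the threshold at 12 type II and 5 type I genes (46.2% and 17.9%, beside 13.1% of all genes). They exceeded endoderm at 5 type II and 10 type I genes (19.2% and 35.7%, beside 12.8% of all genes). Partner genes were alike in some pairs and apart in others. Krt1 and Krt10 stood at percentiles 91.04 and 81.1 in endoderm, 97.1 and 19.9 in hepatocytes, and 76.9 and 14.4 in beta cells. Krt6a and Krt16 stood at 92.7 and 78.7, 94.9 and 81.8, and 92.1 and 95.9 in the same order. Krt5 and Krt14 stood at 51.0 and 81.3 in endoderm, but at 92.3 and 92.01 in hepatocytes and at 77.6 and 94.6 in beta cells. Krt71 and Krt25 of the root sheath stood at 85.6 and 15.7 in endoderm, 93.7 and 78.4 in hepatocytes, and 76.6 and 94.0 in beta cells.

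The genes were next placed in their chromosomal order, for which 53 keratins had a RefSeq entry in GRCm38.p6 (all but Krt85). Only the order was used, not coordinates. On chromosome 15 the 26 placed keratins had median percentiles of 83.8, 92.9 and 75.2 (endoderm, hepatocytes, beta cells), and the 5 genes flanking them on each side 60.9, 36.8 and 45.3. Near the end of the row in hepatocytes, Krt76 stood at percentile 90.3, Krt4 at 63.4, Krt79 at 67.1 and Krt78 at 91.7. The next genes Krt8, Krt18 and Eif4b, a translation initiation factor, stood at 25.1, 13.2 and 17.6. In endoderm and beta cells the step between Krt78 and Krt8 was from 82.0 to 40.6 and from 73.4 to 16.4. At the other end, Krt80 and Krt7 stood at 94.0 and 91.2 in hepatocytes but at 37.3 and 31.0 in beta cells. Their neighbours Krt88, Krt86 and Krt83 stood at 37.7, 52.4 and 57.1 in beta cells.

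On chromosome 11 the 27 keratins had median percentiles of 76.2, 88.3 and 85.9 in the same order, against 41.4, 50.3 and 44.6 at the 10 flanking genes. Between Krt40 and Krt33a lie 22 placed Krtap genes, with medians of 89.0, 95.6 and 87.3. All 22 were at or above the 75th percentile in hepatocytes. Among the keratins, Krt10 broke the row in hepatocytes and beta cells, at 19.9 and 14.4 between Krt28 (87.2 and 93.04) and Krt12 (95.3 and 88.7). Krt19 did so in beta cells alone, at 16.4 between Krt15 (67.1) and Krt9 (92.98). Krt33a was also below the overall median in beta cells, at 42.6, as were 4 of the 22 Krtap genes. Of these Krtap genes, Krtap16-1 (3.92) and Krtap17-1 stood below Krt19, and Krtap31-1 and Krtap4-6 stood at 22.4 and 34.4. The last 5 keratins of the row, Krt9, Krt14, Krt16, Krt17 and Krt42, stood at 84.02 to 95.9 in beta cells, and the next gene, the initiation factor Eif1, at 5.31.

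**Figure D5:**
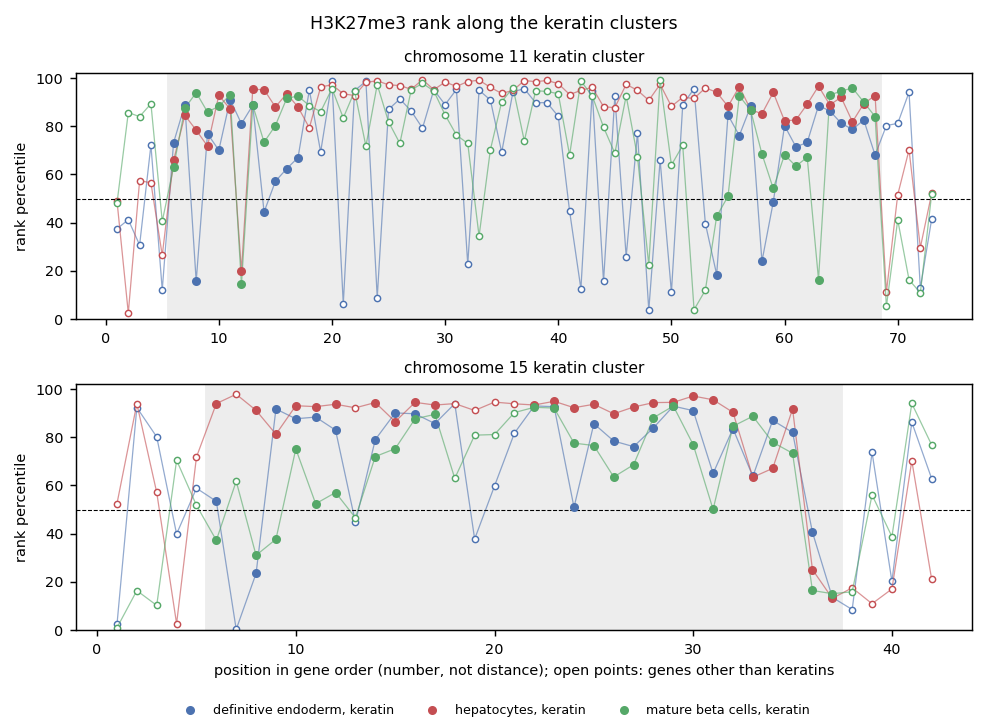
Rank percentile of H3K27me3 in gene order along the keratin clusters of chromosomes 11 and 15 (grey) with 5 flanking genes on each side; filled points are keratins, open points other genes, and the x axis counts genes, not distance. The lowest hepatocyte values among the keratins are Krt10 on chromosome 11 (19.9) and at Krt8 and Krt18 on chromosome 15 (25.1 and 13.2).

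Genes that work with keratins were described from lists chosen with earlier results of these data known. Desmosomes, the junctions to which keratin filaments attach, did not share the keratins' level: the medians of their 19 genes were 0.922 (endoderm), 0.654 (hepatocytes) and 0.676 (beta cells). In hepatocytes 0 of 19 were higher than in endoderm and 2 lower (Dsc2 and Ppl). In beta cells 0 were higher and 2 lower (Evpl and Plec). Of all genes, 12.8% and 14.1% were higher in these comparisons, and 13.3% and 15.1% lower. The desmosome shares were below these throughout. Evpl, the envelope protein envoplakin, had 2.61 (endoderm), 1.40 (hepatocytes) and 0.454 (beta cells). The desmosomal linker Dsp, desmoplakin, had 0.552, 0.539 and 0.382.

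Intermediate filament genes outside the keratins had medians of 2.01, 2.60 and 2.06, with 2 of 15 higher (Nefl and Nefm) and 1 lower (Lmna) in hepatocytes against endoderm. Beta cells against endoderm gave 2 higher (Nefl and Bfsp2) and 3 lower (Ina, Nefh and Lmna). The shares higher, 13.3% in both, were near the 12.8% and 14.1% of all genes. Those lower were 6.67% and 20%, beside 13.3% and 15.1% of all genes. Nefl, a neurofilament subunit, had 1.90 (endoderm), 8.56 (hepatocytes) and 4.04 (beta cells). Lmna, the nuclear lamin made in most differentiated cells, had 2.01, 0.406 and 0.360, the same order as Krt10. Vim, vimentin of mesenchymal cells, had 1.83, 2.99 and 2.27.

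Of 18 transcription factors of epidermis and hair, hepatocytes against endoderm gave 5 higher (Grhl2, Ovol2, Lef1, Msx2 and Barx2) and 0 lower. Beta cells against endoderm gave 4 higher (Grhl2, Gata3, Lef1 and Msx2) and 2 lower (Klf5 and Foxn1). The shares higher were 27.8% and 22.2%, beside 12.8% and 14.1% of all genes, and those lower 0% and 11.1%, beside 13.3% and 15.1%. Tfap2a, a factor of surface ectoderm, was high throughout (4.37, 4.74 and 5.28), as was Hoxc13, a regulator of hair keratin genes (8.70, 5.47 and 6.89). Msx2, a homeobox factor of the hair matrix, had 1.21, 5.55 and 5.30. Trp63, the master factor of stratified epithelia, had 1.36, 0.730 and 1.24, and so stood near the overall median in hepatocytes.

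Markers of ducts and simple epithelia other than keratins were set beside Krt7 and Krt19. Of 12, hepatocytes against endoderm gave 4 higher (Sox9, Epcam, Spp1 and Cldn7) and 1 lower (Onecut1). These are shares of 33.3% and 8.33%, beside 12.8% and 13.3% of all genes. The medians of the 12 were 0.697 (endoderm), 1.57 (hepatocytes) and 0.468 (beta cells). Epcam, an adhesion protein of ducts, had 0.547, 2.69 and 0.472, highest in hepatocytes as Krt7 was. Spp1, osteopontin, had 0.511, 2.02 and 0.288. Cldn7, a tight junction claudin, had 1.04, 4.90 and 0.238, and Muc1, a surface mucin, 2.23, 2.25 and 0.398, both lowest in beta cells like Krt19. Sox9, a duct and progenitor factor, went the other way in beta cells (1.15, 3.34 and 6.74). Onecut1, a liver and duct factor, had 2.70, 0.314 and 2.63. Cdh1, the epithelial cadherin, had 0.495, 0.737 and 0.464, and Cftr, the chloride channel of ducts, 0.694, 1.11 and 1.26. Prom1 had 0.576, 0.620 and 0.529 and Vil1, villin of the brush border, 0.428, 0.755 and 0.370.

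Markers of other cells that the preparations could hold were counted as well. Hepatocytes against endoderm gave 0 higher of 9 endothelial genes, 2 of 9 blood genes (Cd68 and Hba-a1) and 1 of 9 fibroblast or stellate genes (Col1a2), with 0 lower in each list. Hepatocytes against beta cells gave 1 higher (Gata1) and 2 lower (Cd3e and Spi1) blood genes and none in the other lists. Beta cells against endoderm gave 1 higher endothelial gene (Erg), 1 higher fibroblast gene (Acta2), and 2 higher (Cd68 and Cd3e) and 2 lower (Cd79a and Gata1) blood genes. Over all genes the shares higher and lower were 12.8% and 13.3%, 13.1% and 12.5%, and 14.1% and 15.1% in the order given. In a list of 9, 1 gene is a share of 11.1%, near those of all genes. The endothelial medians were 0.919, 1.08 and 1.30 in endoderm, hepatocytes and beta cells, those of blood genes 1.12, 0.946 and 1.10 and those of fibroblast genes 1.31, 1.29 and 1.74. The part of other cells in the preparations in these results was not tested. How reads of near-identical keratins (such as Krt6a and Krt6b, Krt14, Krt16 and Krt17, or Krt81, Krt83 and Krt86) were assigned is not stated, and their values are uncertain to that extent.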

How the data were processed

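H3K27me3 ChIP-seq and input libraries of definitive endoderm, adult hepatocytes and mature beta cells were summarised by the authors as 1 ratio of H3K27me3 to input per gene and cell type, quantile-normalized across cell types, per the file headers and the name of the deposited table. Bowtie2 2.1.0, bedtools and build mm9 are named in the submitters' processing notes. Not given in the sources used here are the region measured per gene, any constant added and the handling of replicates. That the ratios are linear was read from the values, all above 0.

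Symbols were stripped of trailing spaces. Ratios were compared as log2(ratio + 0.0711), a pseudocount 10 times below the median. Rank percentiles were taken within each column over 24466 genes. With 1 value per cell type there was no test, interval or limma fit, as the design provided for. Depth is unknown. The calculation was tested on simulated data. Promoter CpG content was computed only for classes with at least 80% of members in the RefSeq promoter table. With 36 of 54 entries it is void for the family, and void for the stratified, hair shaft and other classes. Of the listed keratin symbols, Krt3, Krt37, Krt38 and Krt87 were not found in the table. Genes named were all simple keratins, up to 4 members with the largest difference per class or list and comparison, the highest and lowest of each class, the partner pairs and every duct marker except items not reported here; further keratins and neighbours were named after their values were seen, as were the list members given as contrast. Members and lists were chosen with earlier results of these data known. Scripts ran in Python 3.11.15 with pandas 2.3.3, numpy 2.4.6, scipy 1.17.1 and matplotlib 3.10.9.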

Additional observations from a re-analysis of the deposited data

How the results depend on the processing

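No paired analysis was possible because the table holds 1 value per gene and cell type, and for the same reason no replicate could be left out. The higher median of the keratins in hepatocytes than in either other cell type kept its direction in every alternative that computed it anew. A change of threshold leaves this median as it is by construction. It was not computed without the keratins that have near-identical copies. Against endoderm, 15 keratins were higher and 1 lower in hepatocytes. A pseudocount 10 times larger gave 10 and 0, rank percentiles with a 25-point threshold 11 and 1, a threshold of 1.5 gave 10 and 1, a threshold of 0.5 gave 28 and 3, and division by the most frequent value 28 and 1 (median 1.02 in place of 0.58). All genes gave 5.12% and 4.94%, 15.5% and 16.1%, 7.34% and 6.92%, 24.1% and 26.2%, and 21.1% and 7.69% in the same order. Hepatocytes against beta cells gave 17 higher and 2 lower. The larger pseudocount gave 10 and 0, rank percentiles 11 and 1, a threshold of 1.5 gave 9 and 0, a threshold of 0.5 gave 29 and 4, and division by the most frequent value 17 and 1. All genes gave 6.21% and 5.06%, 15.3% and 14.9%, 7.88% and 6.67%, 23.4% and 25.7%, and 13.3% and 12.2% in the same order. Beta cells against endoderm gave 6 higher and 5 lower. The larger pseudocount gave 2 and 3, a threshold of 1.5 gave 1 and 3, a threshold of 0.5 gave 14 and 9, and division by the most frequent value 13 and 3. All genes gave 6.32% and 6.85%, 8.05% and 8.62%, 26.8% and 27.4%, and 23.1% and 9.50% in the same order. At a threshold of 0.5 the share of keratins higher, 25.9%, was near that of all genes. The keratin median of that comparison, -0.06, became 0.37 under division by the most frequent value, which shifts the all-gene median from -0.01 to 0.38. It became 0.0085 when the mean replaced the median. Beyond these shifts, fixed by the construction of the division and of the thresholds, the cause was not tested. At or above the 90th instead of the 75th percentile stood 7 in place of 34 keratins in endoderm, 29 in place of 47 in hepatocytes and 12 in place of 31 in beta cells. Leaving out 14 keratins with near-identical copies, an alternative chosen after seeing the data, gave 12 higher and 1 lower in hepatocytes against endoderm, 12 and 1 against beta cells, and 5 and 3 in beta cells against endoderm. No single keratin past the threshold changed sign under any alternative.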
